A study of Mus musculus with 8 samples.

Results

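Neurotrophic factors and their receptors were followed as 9 genes in ribosome-associated RNA of mouse midbrain dopaminergic neurons. The genes are Ret, Gfra1, Gfra2, Gdnf, Ntrk2, Ntrk3, Ngfr, Bdnf and Cntfr, chosen by name and each found under its symbol among the 21761 genes of the deposited table. The RNA was taken by translating ribosome affinity purification, in which RNA on tagged ribosomes is pulled down from one cell type of a tissue. The MPTP group held 4 libraries from C57BL/6 mice given MPTP-HCl intraperitoneally at 30 mg/kg free base on each of 5 days, and the saline group held 4 libraries from C57BL/6 mice given saline on the same schedule. Tissue of both groups was collected 4 days after the last injection. MPTP is a neurotoxin whose metabolite enters dopaminergic neurons and blocks mitochondrial respiration. The labels name neither the transgene that tags the ribosomes nor its promoter, and age and sex of the mice are not given here. The protocol covers substantia nigra and ventral tegmental area dissected jointly or apart, and the labels of these libraries say only midbrain. The title of the deposited counts includes the letters SN, but no label of these libraries says that only substantia nigra was taken. The labels do not say that libraries came from separate animals, so p-values measure the spread between these libraries, which may be technical.

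Trophic factors reach dopaminergic neurons through receptors of several families. GDNF binds the membrane-anchored co-receptor GFRA1, neurturin prefers GFRA2, and either complex engages the receptor tyrosine kinase RET. BDNF acts through the kinase TrkB, encoded by Ntrk2, neurotrophin-3 through TrkC, encoded by Ntrk3, and all neurotrophins bind the low-affinity receptor encoded by Ngfr. CNTF binds the anchored receptor encoded by Cntfr, which signals with the subunits encoded by Il6st and Lifr. GDNF and BDNF are known as survival factors of nigral dopaminergic neurons, and GDNF has been studied widely in animals given MPTP.

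Library totals lay between 66450856 and 78892061 counts in MPTP and between 54192354 and 69333470 counts in saline. Dopaminergic identity was clear in every library: the dopamine transporter gene Slc6a3 had a level of 2910 ± 267 CPM, counts scaled to library size, in MPTP and 3417 ± 613 CPM in saline, and Th, which encodes tyrosine hydroxylase, 2255 ± 315 CPM in MPTP against 2650 ± 550 CPM in saline (SD, n = 4 for every group mean from here on unless stated). RNA of other cells was present too. The summed level of 13 astrocyte markers ranged from 706 to 774 CPM in MPTP and from 602 to 817 CPM in saline, and that of 12 oligodendrocyte markers from 1216 to 1396 CPM in MPTP and from 838 to 1778 CPM in saline. The sums for 12 microglia markers were 59.3 to 69.8 CPM in MPTP and 53.4 to 66.3 CPM in saline, and for 11 endothelial and mural markers 14.2 to 20.3 CPM and 11.7 to 25.4 CPM. For 7 GABAergic neuron markers the sums were 242 to 360 CPM in MPTP and 237 to 435 CPM in saline. No marker of these lists was at 0 in any library. The library saline 3 stood apart: it had the highest astrocyte, oligodendrocyte, endothelial and GABAergic sums of the 8 libraries and the lowest mean log2 CPM of 14 dopaminergic markers (7.83, against 8.42 to 8.46 in the other saline libraries and 7.99 to 8.19 in MPTP). Each of the 9 genes is therefore given with and without it.

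Levels were compared between genes as CPM per kilobase of exon union in GENCODE vM21. Ret was by far the most abundant of the 9, at 83.7 ± 10.1 CPM per kilobase in MPTP and 83.3 ± 15.4 in saline. Gfra2 followed with 18.4 ± 1.21 in MPTP and 17.7 ± 2.48 in saline, and Gfra1 with 12.9 ± 0.701 in MPTP and 13.6 ± 2.21 in saline. Cntfr had 13.3 ± 1.47 in MPTP and 8.94 ± 1.57 in saline, Ntrk2 5.15 ± 0.271 and 4.996 ± 0.649, and Bdnf 2.52 ± 0.231 and 2.41 ± 0.531. Ntrk3, whose exon union is the longest at 30170 bases, had 0.987 ± 0.114 CPM per kilobase in MPTP and 0.948 ± 0.214 in saline. Ngfr, at 0.376 ± 0.139 in MPTP and 0.426 ± 0.239 in saline, and Gdnf, at 0.126 ± 0.0829 in MPTP and 0.107 ± 0.0788 in saline, closed the order. Over the 8 libraries, the ranges of neighbours in this order overlapped for Gfra1 and Cntfr and for Ngfr and Gdnf, and for no other neighbours. No source used here names the annotation that the authors counted against, so a level per kilobase rests on an assumed exon length.

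**Figure D1:**
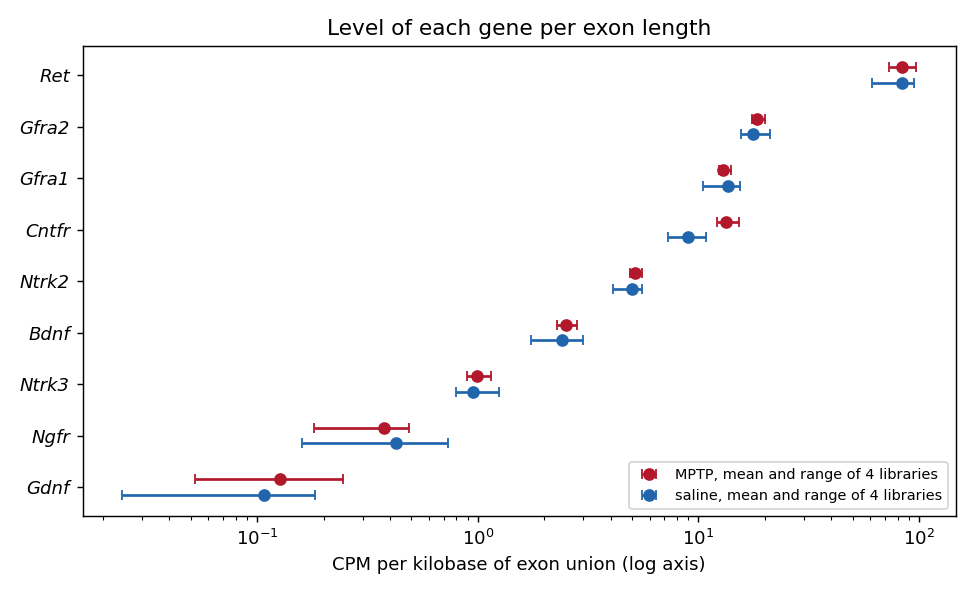
Levels of the 9 genes as CPM per kilobase of exon union on a log axis, with the mean (point) and the range (bar) of 4 MPTP libraries above those of 4 saline libraries. Ret lies highest, at 83.7 in MPTP and 83.3 in saline, and Gdnf lowest, at 0.126 and 0.107.

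None of the 9 genes passed the test between MPTP and saline. edgeR's quasi-likelihood test with Benjamini-Hochberg adjustment over all 15999 genes tested called 0 of the 9 at an adjusted p of 0.05, where 0.106% of all genes tested were called (0.075% higher and 0.0313% lower in MPTP). All 9 genes passed the filter on low counts. At an unadjusted p of 0.05 the test found 1 of the 9, Cntfr, where 8.78% of all genes tested lay under that value. DESeq2 called 1 of the 9, again Cntfr, where it called 0.332% of genes. The median log2 fold change of the 9 was 0.06, with 7 above 0 and 2 below, where the median over all genes tested was 0.00056 and 50.1% lay above 0. In bulk RNA of this kind, fewer cells of a type and less RNA per cell cannot be told apart.

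**Figure D2:**
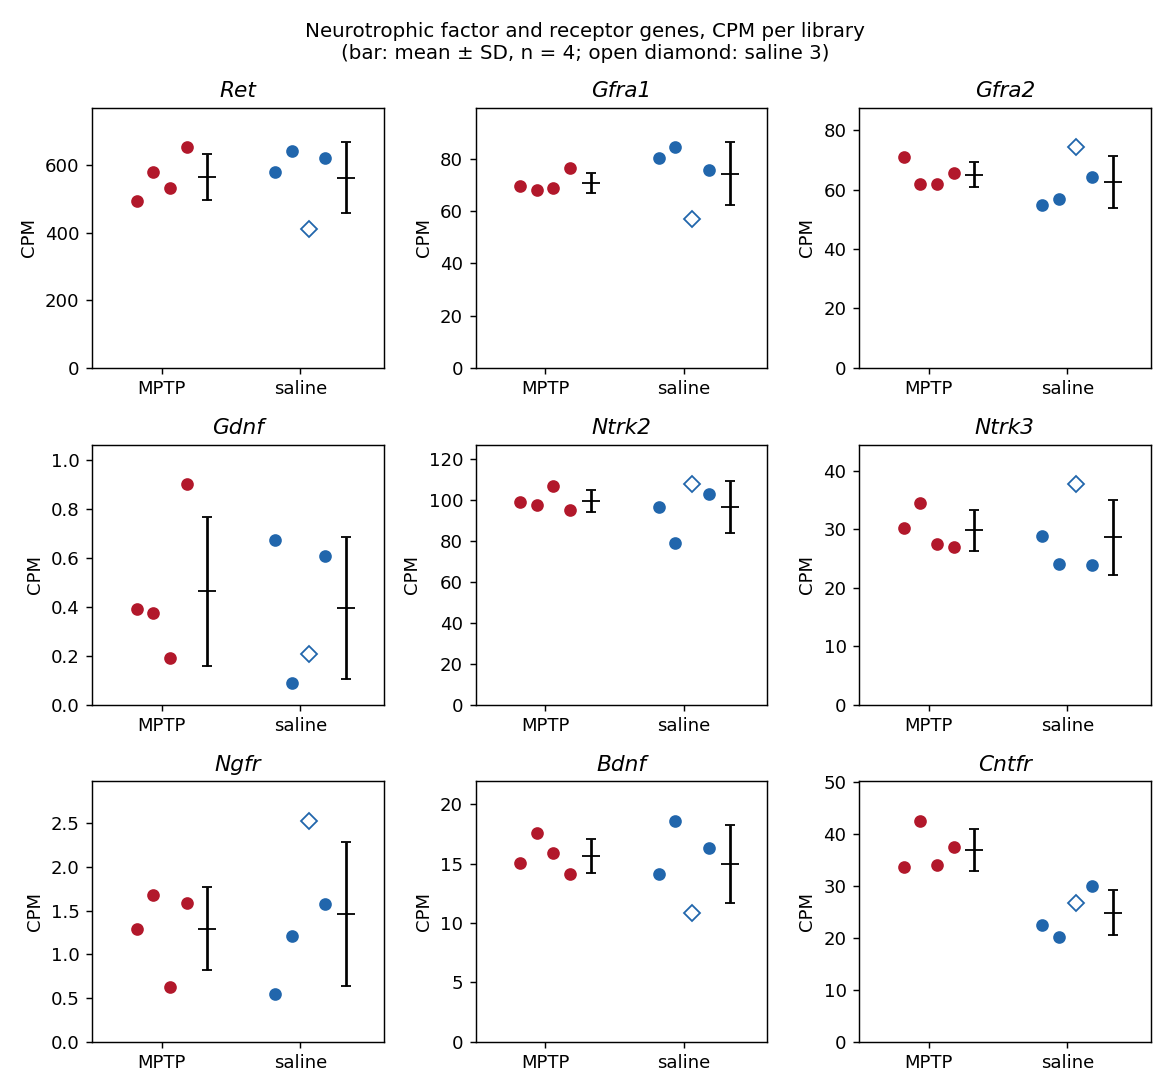
CPM of each gene in each library, MPTP left of saline in every panel, with axes from 0 and mean ± SD (n = 4) beside the points; the open diamond is saline 3. The MPTP libraries lie above all saline libraries for Cntfr (33.7 to 42.5 CPM, against 20.2 to 30.04 CPM), and the groups overlap for the other 8 genes.

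Cntfr, the ligand-binding receptor for CNTF, differed most. It had 33.7, 42.5, 33.95 and 37.4 CPM in MPTP 1 to 4 and 22.5, 20.2, 26.7 and 30.04 CPM in saline 1 to 4, from 2293 to 3069 counts in MPTP and 1353 to 1684 counts in saline. Every MPTP library was above every saline library. It was the only one of the 9 without overlap, which 4.19% of all genes tested showed in either direction and 2.04% with MPTP higher. The mean was 36.9 ± 4.10 CPM in MPTP and 24.9 ± 4.36 CPM in saline, a fold change of 1.48 with a 95% interval of 1.23 to 1.79 or 0.57 on the log2 scale (SE 0.13, unadjusted p = 0.000366, adjusted p = 0.234). The log2 fold change stayed above 0 in all 16 alternative settings, between 0.48 and 0.67. The adjusted p over those settings ran from 0.0164 to 0.714, and 2 of them put it under 0.05: DESeq2 (adjusted p = 0.0164) and edgeR without saline 3 (adjusted p = 0.0341). Without saline 3, 0.853% of genes tested were called higher in MPTP, and 16.9% had an unadjusted p under 0.05, Cntfr again alone among the 9. Dopaminergic and non-neuronal markers also differed between the groups without saline 3, as given below. Their part in that call of Cntfr was not tested.

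**Figure D3:**
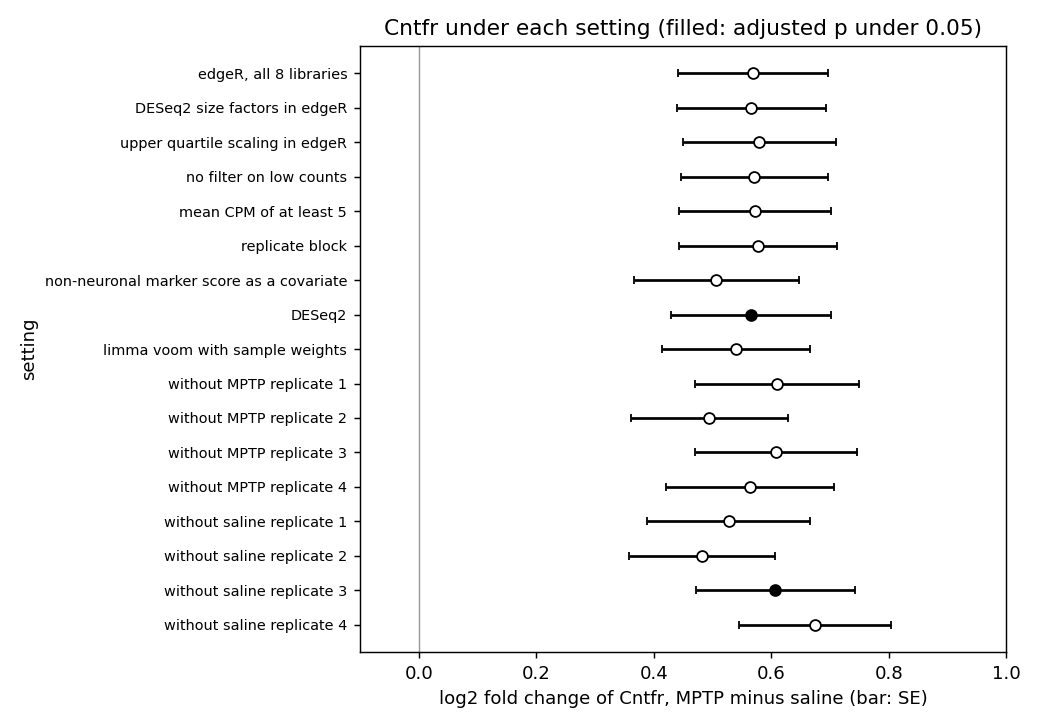
Log2 fold change of Cntfr, MPTP minus saline, with its SE (bar), from edgeR on all 8 libraries and in the 16 alternative settings; filled points have an adjusted p under 0.05. All estimates lie between 0.48 and 0.67, and the filled points are DESeq2 and the fit without saline 3.

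Markers of other cells were set beside Cntfr, and their part in its difference was not tested beyond the covariate below. All 13 astrocyte markers and 11 of 12 oligodendrocyte markers had log2 fold changes above 0, and 8 of 12 microglia markers and 4 of 11 endothelial and mural markers did, none of them past the threshold. Of 14 dopaminergic markers, 13 lay below 0, with a median of -0.17, 4 of the 14 at an unadjusted p under 0.05 and 0 past the threshold. At that unadjusted p lay 2 astrocyte, 0 oligodendrocyte, 3 microglia and 1 endothelial and mural markers, where 8.78% of all genes tested did. For 2 microglia markers the groups did not overlap, where 4.19% of all genes tested showed this, and the lowest adjusted p of that list was 0.169. In a fit that also held the mean score of these 4 lists, called the non-neuronal score, the log2 fold change of Cntfr was 0.51 (SE 0.14, adjusted p = 0.534). That score left out other lists. Of those, 5 of 6 oligodendrocyte precursor, 4 of 7 GABAergic and 4 of 5 glutamatergic neuron markers tested lay above 0, and 0 passed the threshold. Among them, 1 precursor marker had an unadjusted p under 0.05, and 1 glutamatergic marker had groups without overlap. Saline 3, with the highest non-neuronal score (3.26, against 2.85 to 3.15 in MPTP), had 26.7 CPM of Cntfr, inside the 20.2 to 30.04 CPM of the other saline libraries. MPTP 2 had both the highest Cntfr level (42.5 CPM) and the highest non-neuronal score of the MPTP libraries (3.15).

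The partners of Cntfr in its receptor complex were also measured. Il6st, the shared signalling subunit, had 48.96, 37.9, 46.1 and 45.7 CPM in MPTP 1 to 4 and 27.8, 39.7, 40.2 and 31.8 CPM in saline 1 to 4. MPTP 2 lay below saline 2 and saline 3, so the groups overlapped. Il6st differed by 0.36 on the log2 scale (SE 0.12, unadjusted p = 0.0105, adjusted p = 0.440), and by 0.43 without saline 3 (adjusted p = 0.0838). Lifr, the other signalling subunit, had 29.3 ± 4.61 CPM in MPTP and 28.7 ± 6.17 CPM in saline, which differed by 0.03 on the log2 scale (SE 0.15, adjusted p = 0.967). Within a library, the log2 ratio of Cntfr counts over Il6st counts averaged -0.28 ± 0.31 in MPTP and -0.49 ± 0.38 in saline, with overlapping groups. Ligand RNA was scarce. Cntf itself had 0.441 ± 0.190 CPM in MPTP and 0.525 ± 0.406 CPM in saline, and the related ligand gene Clcf1 0.305 ± 0.176 and 0.256 ± 0.187 CPM.

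Upstream sequence is shown for Cntfr as the gene whose groups separated, and for the one Bdnf start whose window held an AP-1 type motif. Promoter windows came from RefSeq on GRCm38.p6 and ran from 250 bases before to 50 bases after a start. Of the 9 genes, 6 matched an entry, with 18 windows among them, 6 for Cntfr and 7 for Bdnf. The motifs searched on both strands were TGANTCA, the AP-1 type, TGACGTCA, the cyclic AMP response element, and TTCNNNGAA, the STAT type. Only the 250 bases before the start are printed, 5′ to 3′ on the strand of the gene, with a motif match in capitals:
Cntfr, most upstream RefSeq start, chr4:41696038-41696287, minus strand: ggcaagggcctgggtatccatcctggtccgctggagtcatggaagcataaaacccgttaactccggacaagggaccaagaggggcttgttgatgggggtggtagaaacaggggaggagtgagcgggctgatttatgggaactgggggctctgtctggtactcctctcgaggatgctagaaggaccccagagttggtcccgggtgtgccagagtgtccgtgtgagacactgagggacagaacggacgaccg
Bdnf, start with the TGANTCA match, chr2:109676782-109677031, plus strand: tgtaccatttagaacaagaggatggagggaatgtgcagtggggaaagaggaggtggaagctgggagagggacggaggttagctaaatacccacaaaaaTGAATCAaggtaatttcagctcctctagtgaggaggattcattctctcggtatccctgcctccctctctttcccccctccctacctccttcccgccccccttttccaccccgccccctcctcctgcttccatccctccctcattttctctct
The Cntfr stretch holds no capitals because none of the 3 motifs was in it, and none was in the other 5 Cntfr windows. The Bdnf match TGAATCA begins 152 bases before the start. Of the 18 windows, 1 held TGANTCA, 0 held TGACGTCA and 1 held TTCNNNGAA, the last at another Bdnf start, and the matches did not overlap. Among all 32851 windows of 300 bases, 7.81% held TGANTCA, 1.79% held TGACGTCA and 8.298% held TTCNNNGAA. These matches describe letters in a window, and no binding was measured.

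Ret, the signalling kinase for the GDNF family, had similar mean levels in both groups. It had 495, 582, 533 and 654 CPM in MPTP 1 to 4 and 580.5, 641, 412 and 621 CPM in saline 1 to 4. Saline 3 was the lowest of the 8 libraries, and the other saline libraries lay within the MPTP range. The mean was 566 ± 68.3 CPM in MPTP and 564 ± 104 CPM in saline, a fold change of 1.004 with a 95% interval of 0.835 to 1.21 (log2 fold change 0.01, SE 0.13, adjusted p = 0.993). Without saline 3 the log2 fold change was -0.12 (SE 0.09, adjusted p = 0.563), and with the non-neuronal covariate it was 0.20 (SE 0.10, adjusted p = 0.778).

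Gfra1, the co-receptor that GDNF prefers, had 69.9, 68.2, 68.98 and 76.6 CPM in MPTP 1 to 4 and 80.3, 84.6, 57.1 and 75.8 CPM in saline 1 to 4. As with Ret, saline 3 was the lowest library. The log2 fold change of Gfra1 was -0.07 (SE 0.11, adjusted p = 0.890), a fold change of 0.952 with a 95% interval of 0.812 to 1.12. Without saline 3 it was -0.18 (SE 0.09, unadjusted p = 0.0525, adjusted p = 0.302), whereas the fit with the non-neuronal covariate gave 0.09 (adjusted p = 0.919), on the other side of 0.

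Gfra2, the co-receptor of neurturin, had 70.97, 61.9, 61.9 and 65.6 CPM in MPTP 1 to 4 and 54.96, 56.9, 74.3 and 64.4 CPM in saline 1 to 4. Here saline 3 was the highest library, not the lowest. For Gfra2 the log2 fold change was 0.06 (SE 0.10, adjusted p = 0.909), a fold change of 1.04 with a 95% interval of 0.896 to 1.21, and 0.15 without saline 3 (adjusted p = 0.453). The balance of the co-receptors within a library therefore differed in saline 3. The log2 ratio of Gfra1 over Gfra2 counts was -0.02, 0.14, 0.16 and 0.22 in MPTP 1 to 4 and 0.55, 0.57, -0.38 and 0.24 in saline 1 to 4. Saline 3 was the lowest of the 8. Saline 1, 2 and 4 were above the 4 MPTP libraries, saline 4 only narrowly (0.236, against 0.222 in MPTP 4). With saline 3 the groups overlapped, and their means were 0.12 ± 0.10 in MPTP and 0.24 ± 0.44 in saline. The ratio was not tested. Saline 3 had been set apart in these same data, and how often other ratios separate without it is not given here.

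Gdnf, the ligand of Gfra1 and Ret, was scarce in the purified RNA. Its counts were 32, 27, 13 and 68 in MPTP 1 to 4 and 44, 6, 13 and 32 in saline 1 to 4. The lowest and the highest library belonged to different groups, with saline 2 at 6 counts and MPTP 4 at 68. For Gdnf the log2 estimate was 0.24 (SE 0.74, adjusted p = 0.951), with a 95% interval of 0.399 to 3.501 in fold, and the levels varied by 65.6% of their mean in MPTP and 73.4% in saline (coefficient of variation). Without saline 3 the log2 estimate was 0.03 (SE 0.81, adjusted p = 0.992). The related ligand genes were as scarce. Nrtn had 0.482 ± 0.201 CPM in MPTP and 0.338 ± 0.203 CPM in saline, and Artn 0.703 ± 0.520 CPM and 0.528 ± 0.164 CPM. The co-receptor gene Gfra4 was better measured, with 28.2 ± 2.07 CPM in MPTP and 25.5 ± 3.21 CPM in saline (log2 fold change 0.15, adjusted p = 0.744).

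Ntrk2, which encodes the BDNF receptor TrkB, had 98.7, 97.4, 106.8 and 94.7 CPM in MPTP 1 to 4 and 96.3, 78.9, 107.5 and 102.8 CPM in saline 1 to 4. Saline 2 was low and the other 7 libraries lay close together. Ntrk2 differed by 0.04 on the log2 scale (SE 0.10, adjusted p = 0.926), a fold change of 1.03 with a 95% interval of 0.895 to 1.19, and by 0.10 without saline 3 (SE 0.10, adjusted p = 0.644). Ntrk2 also encodes a truncated receptor without the kinase, which astrocytes express, and counts per gene do not separate the forms.

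Ntrk3, which encodes TrkC, the neurotrophin-3 receptor, had 30.1, 34.5, 27.4 and 27.0 CPM in MPTP 1 to 4 and 28.8, 24.04, 37.7 and 23.9 CPM in saline 1 to 4. Saline 3 was the highest library, and saline 2 and 4 were the lowest. The log2 fold change of Ntrk3 was 0.06 (SE 0.14, adjusted p = 0.936), with a 95% interval of 0.847 to 1.28 in fold. It was 0.22 without saline 3 (adjusted p = 0.374) and -0.14 with the non-neuronal covariate (adjusted p = 0.894). The log2 ratio of Ntrk3 over Ntrk2 counts averaged -1.74 ± 0.19 in MPTP and -1.77 ± 0.24 in saline.

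Ngfr, the low-affinity neurotrophin receptor, was rare, with 106, 121, 42 and 120 counts in MPTP 1 to 4 and 36, 81, 159 and 83 counts in saline 1 to 4. Saline 3 was again the highest library, and saline 1 and MPTP 3 were the lowest. For Ngfr the log2 fold change was -0.18 (SE 0.47, adjusted p = 0.943), with a 95% interval of 0.443 to 1.76 in fold. It was 0.22 without saline 3 (adjusted p = 0.877).

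Bdnf, the ligand of TrkB, was the one ligand of the 9 genes with a well-measured level. It had 15.1, 17.6, 15.9 and 14.2 CPM in MPTP 1 to 4 and 14.2, 18.6, 10.8 and 16.3 CPM in saline 1 to 4, from 1069 to 1268 counts in MPTP and 681 to 1242 counts in saline. Saline held both the lowest and the highest library, and the MPTP libraries lay between them. The log2 fold change of Bdnf was 0.07 (SE 0.16, adjusted p = 0.932), a fold change of 1.05 with a 95% interval of 0.834 to 1.32, and -0.06 without saline 3 (adjusted p = 0.879). With the non-neuronal covariate it was 0.27 (SE 0.15, adjusted p = 0.837). Ntf3, which encodes neurotrophin-3, had 11.6 ± 1.20 CPM in MPTP and 13.3 ± 2.47 CPM in saline (log2 fold change -0.20, adjusted p = 0.744, and -0.32 without saline 3, adjusted p = 0.257).

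**Figure D4:**
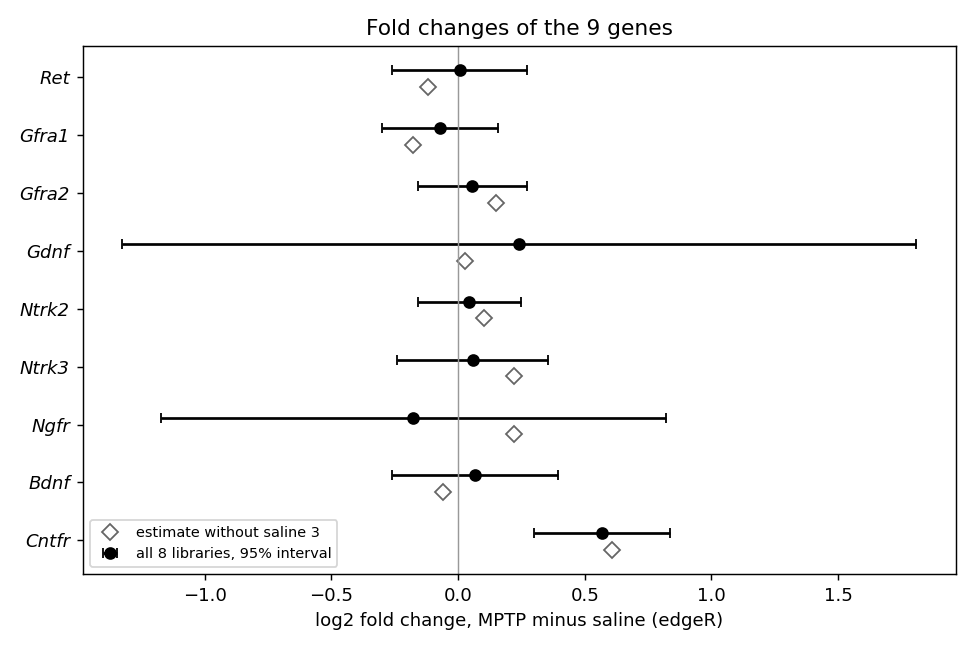
Log2 fold change, MPTP minus saline, of each gene from edgeR on all 8 libraries with its 95% interval (filled), and the estimate without saline 3 (open). The interval of Cntfr, 0.30 to 0.84, lies above 0, those of the other 8 genes include 0, and those of Gdnf and Ngfr are the widest.

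Saline 3 divided the genes. Relative to the mean log2 CPM of the other saline libraries, it was lower by value in Bdnf (-0.59), Ret (-0.58) and Gfra1 (-0.49), and below all 3 of them in each. It was higher in Ngfr (1.30), Ntrk3 (0.56), Gfra2 (0.34) and Ntrk2 (0.22), and above all 3 of them in each. Cntfr (0.16) and Gdnf (-0.69, on 13 counts) lay inside the range of the other saline libraries. These differences come from 1 library and were not tested. Any 1 of 4 libraries is often the lowest or the highest, and the share over all genes is not given here. The same library had the lowest dopaminergic and the highest non-neuronal score, as given above, and the part of composition in these levels was not tested gene by gene.

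**Figure D5:**
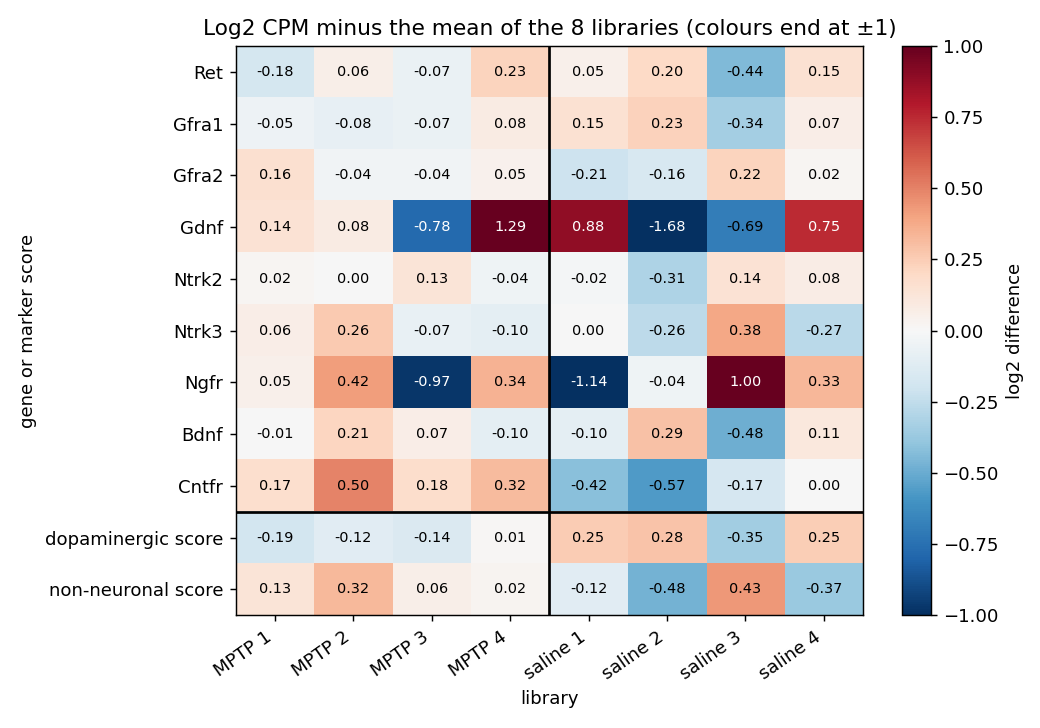
Log2 CPM of each gene and the 2 marker scores in each library, minus their mean over the 8 libraries, with MPTP libraries left of the line and saline libraries right of it. Saline 3 is low in Ret, Gfra1 and Bdnf beside the dopaminergic score, and high in Gfra2, Ntrk2, Ntrk3 and Ngfr beside the non-neuronal score.

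Likeness to other genes was measured as the root mean square distance of centred log2 CPM over the 8 libraries, among the 12184 named genes whose mean log2 CPM reached 1. The genes nearest to Ret were Slc10a4 (distance 0.06), the nicotinic receptor subunit gene Chrna6 (0.07) and the synuclein-interacting gene Sncaip (0.07), where the spread of Ret itself was 0.21. Nearest to Bdnf were Cubn (0.08), the prohormone convertase gene Pcsk1 (0.09) and Mrps31 (0.10). Nearest to Ntrk2 were Tmem131, Anp32a and Fnbp1 (each 0.05). For Cntfr, added after its values were seen, they were the collagen gene Col4a2 (0.08), the GABA transporter gene Slc6a11 (0.12) and Cecr2 (0.13), where the spread of Cntfr was 0.34. All these genes were measured in the same 8 libraries, which differ in depth and composition, so the distances are descriptions only.

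Around the 9 genes, 196 further genes of the same pathways were listed, of which 183 were tested and 0 passed the threshold. Of them, 19 (10.4%) had an unadjusted p under 0.05, where 8.78% of all genes tested did, and DESeq2 called 1 of them, Fgf1. Their median log2 fold change was 0.04, with 106 above 0 and 77 below. The groups did not overlap for 7 of the 183 (3.83%), where 4.19% of all genes tested showed this: Fgf1, Fgf20 and Sos1 were below saline in every MPTP library, and Fgfr1, Pcsk6, Akt1 and Kidins220 above it. Akt1 and Kidins220 are named here after their values were seen. Among 21 tested trophic factors of other families, Fgf1, the acidic fibroblast growth factor gene, had 165 ± 23.6 CPM in MPTP and 216 ± 8.42 CPM in saline (log2 fold change -0.39, adjusted p = 0.321). Fgf20, a factor known to act on dopaminergic neurons, had a log2 fold change of -0.55 (adjusted p = 0.415), and Fgf2 had 1.22 (adjusted p = 0.519) from levels of 1.03 ± 0.426 CPM in MPTP and 0.443 ± 0.107 CPM in saline. Among 21 receptors of such factors, Fgfr1 had 0.35 (adjusted p = 0.392) and the insulin receptor gene Insr 0.30 (adjusted p = 0.506).

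Signalling genes downstream were similar. Of 49 adaptors and effectors of Ret and Trk kinases, 26 had log2 fold changes above 0 and 23 below, with a median of 0.02. Mapk7, the kinase ERK5 of Trk signalling, had 0.64 (adjusted p = 0.392) and the Ras exchange factor gene Sos1 -0.25 (adjusted p = 0.439). Of 22 negative regulators of receptor tyrosine kinases, 15 lay above 0 and 7 below, with a median of 0.12, and the lowest p values were those of the phosphatase gene Ptprf (0.44, adjusted p = 0.328), Cish (0.40, adjusted p = 0.506) and Spry2 (0.36, adjusted p = 0.519). Of 23 transcripts known to follow neurotrophic signalling, 13 lay above 0 and 10 below, with a median of 0.06. Vgf, a secreted neurotrophin-induced peptide precursor, had 0.55 (adjusted p = 0.415) and the ERK phosphatase gene Dusp6 0.68 (adjusted p = 0.553). Among 20 genes of processing and transport, the proprotein convertase gene Pcsk6 had 0.67 (adjusted p = 0.325), and among 14 partners and effectors of the low-affinity receptor the lowest adjusted p was 0.752, for Irak1 (0.14). Syndecan-3, Sdc3, a GDNF-binding proteoglycan, had 0.25 (adjusted p = 0.492), Ncam1, an alternative GDNF receptor, 0.11 (adjusted p = 0.723), and the neurotrophin sorting receptor gene Sort1 0.09 (adjusted p = 0.838).

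Without saline 3, 5 of the 183 further genes passed (2.73%), where 1.84% of all genes tested did. In these 7 libraries the dopaminergic score differed by -0.37 between MPTP and saline and the non-neuronal score by 0.46. Each had an exact permutation p of 0.0286, the smallest possible, against 0.171 and 0.229 with all 8 libraries. Saline 3 had been set apart by the same markers, so the p-values without it are no independent test of the scores. The part of the scores in the 5 calls, and in that of Cntfr without saline 3, was not tested. Tgfa (log2 fold change 0.82, adjusted p = 0.0281), the heparin-binding factor gene Ptn (0.63, adjusted p = 0.0341), Fgfr1 (0.44, adjusted p = 0.0351) and Dusp6 (1.11, adjusted p = 0.0463) were higher in MPTP, and Fgf1 was lower (-0.40, adjusted p = 0.0498). With all 8 libraries, Tgfa had a log2 fold change of 0.47 (adjusted p = 0.601) and Ptn of 0.33 (adjusted p = 0.675). Saline 3 itself had 19.0 CPM of Tgfa, 31.9 CPM of Ptn and 5.73 CPM of Dusp6, each above the MPTP mean of 15.8, 25.5 and 5.20 CPM. For Fgf1 it had 211 CPM, close to the 218 ± 9.59 CPM of the other saline libraries (SD, n = 3).

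Positions are from GENCODE vM21 on GRCm38, and all 9 genes are protein-coding. Ret lies on chromosome 6 (118151745 to 118197718, minus strand), Gfra1 on chromosome 19 (58235604 to 58455909, minus), Gfra2 on chromosome 14 (70890120 to 70979838, plus) and Gdnf on chromosome 15 (7810846 to 7837575, plus). Ntrk2 lies on chromosome 13 (58806569 to 59133970, plus), Ntrk3 on chromosome 7 (78175959 to 78738012, minus), Ngfr on chromosome 11 (95568818 to 95587735, minus), Bdnf on chromosome 2 (109674700 to 109727007, plus) and Cntfr on chromosome 4 (41657498 to 41697089, minus). The exons of Bdnf share 896 bases (14.4% of its exon union) with the antisense gene Gm45346, and those of Gfra1 share 416 bases (7.60%) with the antisense gene Gm16277. The library kit does not mark strand, so reads of these partners cannot be told apart there. The exons of the other 7 genes overlapped no other GENCODE exon.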

How the data were processed

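Raw gene counts of 8 libraries were deposited by the authors in 1 table. TopHat2 2.0.8 and the build mm10 are named in the submitters' processing notes. No source used here names the counting tool, annotation or strand setting. Of the symbols, 27 had become dates and were restored by Entrez identifier; 90 genes without a symbol (0.0505% to 0.056% of counts) were kept under their Entrez identifier. Counts were fitted with edgeR 4.0.16 in R 4.3.3 with TMM scaling, filterByExpr and the robust quasi-likelihood test, without covariates, on all 8 libraries. Genes passed at a p of 0.05 after Benjamini-Hochberg adjustment over 15999 genes. Log2 fold changes are MPTP minus saline, the SE of edgeR is the absolute log2 fold change over the square root of F, and 95% intervals use its degrees of freedom. CPM use the TMM-scaled library size, log2 CPM a prior count of 2. Genes named by a number, Gm or Rik symbol were left out of the search for like genes. Marker scores are mean log2 CPM, compared by exact permutation. No pair of libraries of the same group agreed within sampling noise, and pairs across groups were not compared. The labels mention no molecular identifiers.

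Alternatives were other scalings, filters, a block for replicate number, a covariate for non-neuronal markers, DESeq2 1.42.0, limma 3.58.1 voom, and leaving out each library. Scripts were tested on simulated data. The genes, lists and naming rule (all 9 genes, and up to 3 genes of smallest p from each pathway list) were chosen with earlier results of these data known. Fold changes of Il6st, Lifr, Cntf, Clcf1, Nrtn, Artn, Gfra4, Ntf3, Ncam1 and Sort1 are given as partners of the 9 genes. Th and Slc6a3 were named as label checks, and the 3 nearest genes of Ret, Bdnf and Ntrk2 by rule. Genes called without saline 3 were named after their values were seen. Results for a few listed genes are not reported here.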

Additional observations from a re-analysis of the deposited data

Results flagged for a closer look

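The dopaminergic marker score of the saline group drew attention because 1 library lay far from the others. Saline 3 had 7.83, against 8.42 to 8.46 in saline 1, 2 and 4, a gap of 0.939 of the whole range of the group, past the 95% critical value of Dixon's test. In all, 34 sets of 4 libraries (CPM of the 9 genes, marker scores and ratios in each group) were examined, and this was the 1 found. Chance gives about 1 in every 20 sets at this critical value, so 1 in 34 is no more than chance gives. The MPTP libraries lay between 7.99 and 8.19. The levels of Ret, Gfra1 and Bdnf were lowest in the same library.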

How the results depend on the processing

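Cntfr kept its direction in each of 16 alternatives and passed the threshold in 2: DESeq2 (log2 fold change 0.57) and without saline 3 (0.61), within a leave-one-out range of 0.48 to 0.67. The other 8 genes passed in none, and their estimates near 0 changed sign in some. With the non-neuronal covariate Gfra1 was 0.0902, Gfra2 -0.0180, Ntrk2 -0.0255 and Ntrk3 -0.14, while Ret was 0.20 and Bdnf 0.27, above their values in every other alternative, and with limma voom Ret was -0.0560; the cause was not tested. Leaving out 1 library, Bdnf ranged from -0.0603 to 0.19, Gdnf from -0.30 to 0.64, Ret from -0.12 to 0.0747, Ntrk2 from -0.0392 to 0.10, Ntrk3 from -0.0202 to 0.22 and Ngfr from -0.45 to 0.22. Of the 9 genes, 0 or 1 were called when a library was left out and 1 by DESeq2. Pathway genes called, the 9 included, numbered 0 to 6 when a library was left out and 2 by DESeq2. Over all genes, calls numbered 17, against 11 with a mean CPM of at least 5 (which drops Gdnf and Ngfr), 53 by DESeq2 and 8 to 297 when a library was left out, with 8 without MPTP 4, 10 without saline 1 and 297 without saline 3. The dopaminergic score differed by -0.22 between MPTP and saline (exact permutation p = 0.171) and the non-neuronal score by 0.27 (exact permutation p = 0.229). Leaving out 1 library, these ranged from -0.37 to -0.16 and from 0.15 to 0.46, and without saline 3 each had an exact permutation p of 0.0286, the smallest possible. Saline 3 had been set apart by the same markers, so that p is no independent test of the scores. Replicate numbers did not pair the libraries: correlations of same-numbered deviations ran from -0.12 to 0.04, and 0 of 4 MPTP libraries correlated best with their own number. The replicate block gave Cntfr a log2 fold change of 0.58 (adjusted p = 0.480) and 14 calls over all genes. Gdnf and Ngfr had the widest intervals of the 9 and the fewest counts.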
